A study of Rattus norvegicus with 18 samples.

Results

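Gliosis and retinal stress were followed with 10 genes chosen by name: Gfap, Vim, Serpina3n, Lif, Edn2, Fgf2, Osmr, Il6st, Stat3 and Socs3. Of these, 9 had a row among the 32285 genes of the retina table, and Serpina3n, a protease inhibitor of reactive astrocytes, had none in either tissue. In the RPE/choroid table of 32552 genes, 8 were found through the gene names of the table that compares aged with young rats, and Lif through those of the tables with treated rats, so the same 9 genes are described in both tissues. The rule uses gene names and no expression value, but the genes were proposed with earlier results of these data known.

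Bulk RNA-seq gave 18 libraries from wild-type female Fischer 344 rats, an albino strain whose retina degenerates with age. Neural retina and RPE/choroid, the pigment epithelium with the vascular layer behind it, each had 3 libraries from young rats (4 months old by the sample labels), 3 from untreated aged rats (24 months old) and 3 from aged rats given 8-aminoguanine (8-AG). 8-AG, an inhibitor of purine nucleoside phosphorylase, was added to the water that treated rats drank from 22 months of age on, for 8 weeks and at 5 mg/kg/day, while untreated aged rats had plain water. The sample labels give total RNA for the 3 libraries of treated retina and polyA RNA for the other 15, although the protocol describes poly-A capture throughout, and they do not say whether any of the libraries came from eyes of the same rat. In the RPE/choroid table, young libraries 1 and 2 carry the same number with L or R after it, as do aged libraries 1 and 2, and the tests below treat them as separate samples.

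Müller glia span the whole retina and answer injury or photoreceptor stress with gliosis, in which they fill with the intermediate filament protein GFAP beside the vimentin they always carry. Stressed photoreceptors release endothelin 2, and Müller cells make leukemia inhibitory factor and FGF2, which protect photoreceptors. Cytokines of the LIF family signal through gp130, encoded by Il6st, with partners such as the oncostatin M receptor, and activate STAT3, which raises Gfap and its own inhibitor Socs3.

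Stretches upstream of the transcription start are shown for 2 members that rose together with age, because each holds a motif of a pathway that acts on these genes. RefSeq gives windows of 300 bases, from 250 before to 50 after the start, for 8 of the 9 measured members on build GRCr8. For Gfap and Fgf2 the start used is the outer end of the RefSeq gene span. Those of Il6st, Socs3, Osmr and Stat3 lie inside the span. The whole Il6st window (chr2:45809982-45810281) lies within a gene that begins at 45798872. The whole Socs3 window (chr10:103694719-103695018) lies within a minus-strand gene whose coordinates run to 103695975. The counts below include these windows. All 8 were searched on both strands for the following motifs. TTCNNNGAA is the spaced palindrome bound by STAT proteins, CTGGGAA the acute-phase element from which STAT3 was first known, and TGANTCA the AP-1 motif. The 250 bases before the start of each gene are printed 5′ to 3′ on the strand of the gene, with the match in capitals.
Gfap, chr10:88361662-88361911, minus strand: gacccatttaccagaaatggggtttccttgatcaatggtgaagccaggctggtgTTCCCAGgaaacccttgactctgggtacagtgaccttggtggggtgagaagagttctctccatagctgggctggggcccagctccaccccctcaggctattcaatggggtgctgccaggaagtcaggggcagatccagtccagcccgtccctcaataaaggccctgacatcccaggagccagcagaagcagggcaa
Fgf2, chr2:122164204-122164453, plus strand: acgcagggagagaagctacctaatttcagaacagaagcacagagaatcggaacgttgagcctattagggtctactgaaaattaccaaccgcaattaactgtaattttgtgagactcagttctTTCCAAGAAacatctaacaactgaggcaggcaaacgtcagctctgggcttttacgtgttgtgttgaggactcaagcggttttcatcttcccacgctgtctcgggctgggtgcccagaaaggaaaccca
The Gfap stretch holds the CTGGGAA element on its opposite strand, and the match, read TTCCCAG on the strand of the gene, begins 196 bases before the start. In Fgf2 the TTCNNNGAA match begins 128 bases before the start. Each of the 3 motifs was found in 1 of the 8 windows, TGANTCA being in that of Osmr, against 8.87% of 33469 windows for TTCNNNGAA, 11.3% for CTGGGAA and 7.33% for TGANTCA. These counts are near the shares of all windows, and no motif was found in the windows of Socs3 or Stat3. The matches describe the letters of the windows and are not binding sites.

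Values are given in CPM, counts scaled to a common total by the TMM-corrected library size, in the order of libraries 1 to 3, and replicate numbers carry no order. Groups were compared with the quasi-likelihood F-test of edgeR, fitted to the 6 libraries of each pair across all genes, and adjusted p is after Benjamini and Hochberg over all genes tested. A second rule, called the fold rule and taken from the study, needs an unadjusted P under 0.05 and a fold over 1.5. With 3 libraries a group the smallest p of an exact permutation test is 0.1, and groups were therefore also checked for overlap. Retina libraries held 12283458 to 15644346 counts and RPE/choroid libraries 28573828 to 48203050. In bulk tissue, fewer cells of a type and less RNA per cell cannot be told apart.

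Several libraries stood apart by the markers of other cells. In retina, 10 lens genes summed to 150 to 6271 CPM in young libraries and to 1766 CPM in 8-AG library 1, but to 17.1 to 24.3 CPM in the other 5. Müller glia markers were present in every retina library, with sums of 6311 to 6878 CPM over 10 genes, including Glul and Rlbp1. In RPE/choroid, rod markers summed to 604 to 54930 CPM, and 8-AG library 1 held the highest rod sum, the highest striated muscle sum (32417 CPM, against 125 to 3380 CPM in the other 8) and the lowest sum of RPE markers (5354 CPM, against 9310 to 19074 CPM). Surface epithelium markers (4 of 6 genes found, among them Krt12 and Krt5) summed to 7.56 to 19.8 CPM in the 3 treated retina libraries and to 1.01 to 3.91 CPM in the other 6. In RPE/choroid they summed to 985, 7.64 and 191 CPM in treated libraries 1 to 3 and to 1.40 to 7.87 CPM in the other 6. Their part in the comparisons with 8-AG was not tested. Results that rest on single libraries that stood apart are given with and without them.

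**Figure D1:**
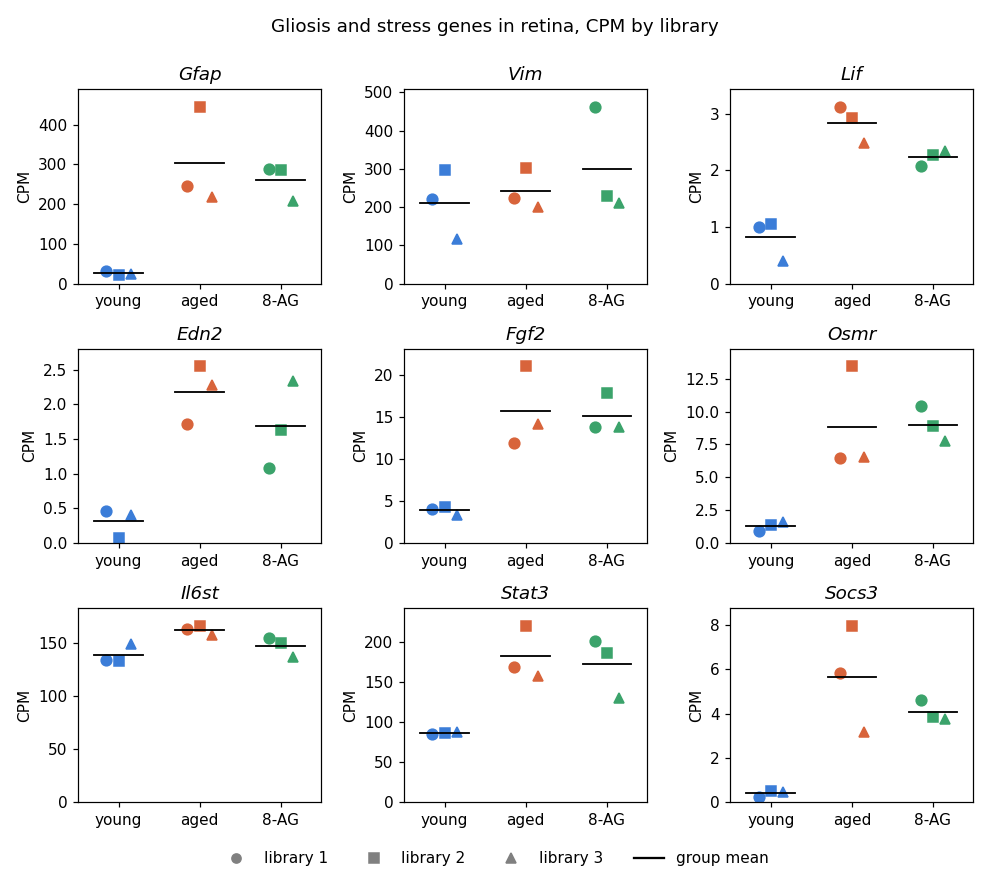
CPM of the 9 measured genes in the 9 retina libraries, 1 panel per gene with an axis from 0; points are libraries (circle 1, square 2, triangle 3) and lines are group means. For Gfap, Lif, Edn2, Fgf2, Osmr, Stat3 and Socs3 all 6 libraries of aged and 8-AG treated rats lie above all 3 young ones, while the Vim points overlap.

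Aging raised most of these genes in the retina. Of the 9 members, 8 were higher in aged than in young retina at an adjusted p under 0.05 (edgeR), where 7.29% of the 14588 genes tested were, and 14.5% passed in either direction. By the fold rule 7 were called, against 8.84% of all genes. No overlap was seen for 8 members, all of them higher in aged retina, as were 18% of all genes without overlap. The median log2 fold change of the 9 was 2.01, against 0.0019 over all genes.

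The filament genes differed from each other. Gfap, the filament of reactive glia, was at 33.3, 21.1 and 25.0 CPM in young and at 247, 444 and 219 CPM in aged retina. All 3 aged libraries lay far above the young ones, and library 2 was the highest of them. The log2 fold change was 3.52 (SE 0.40, adjusted p = 0.00875 by edgeR), a mean of 303 ± 123 CPM against 26.5 ± 6.2 CPM (SD, n = 3). Vim, which encodes vimentin, was at 221, 298 and 116 CPM in young and at 223, 304 and 201 CPM in aged retina, so the groups overlapped. Its log2 fold change was 0.20 (SE 0.41, adjusted p = 0.80 by edgeR). Vimentin is also a lens protein, and among young libraries the order of Vim (library 2, then 1, then 3) was that of the lens sums, 6271, 2851 and 150 CPM; the part of lens RNA in the Vim values was not tested. Without young library 2 the log2 fold change of Vim was 0.52.

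Signals that act between photoreceptors and glia rose. Edn2, the endothelin of stressed photoreceptors, gave 6, 1 and 6 counts in young and 22, 40 and 33 counts in aged retina, or 0.46, 0.075 and 0.41 against 1.72, 2.55 and 2.28 CPM. These counts are low, and all aged libraries were above all young ones. The log2 fold change was 2.76 (SE 0.45, adjusted p = 0.00329 by edgeR). Lif, the gp130 cytokine of Müller cells, gave 13, 14 and 6 counts in young and 40, 46 and 36 counts in aged retina. No aged library came near a young one, and the log2 fold change was 1.80 (SE 0.35, adjusted p = 0.0075 by edgeR). The survival factor gene Fgf2 was at 4.08, 4.29 and 3.31 CPM in young and at 11.9, 21.0 and 14.2 CPM in aged retina. It rose in all 3 aged libraries, with a log2 fold change of 2.01 (SE 0.23, adjusted p = 0.000842 by edgeR).

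The 2 receptor genes changed by very unequal amounts. Osmr, the oncostatin M receptor subunit that pairs with gp130, was at 0.92, 1.35 and 1.62 CPM in young and at 6.47, 13.4 and 6.56 CPM in aged retina. Aged library 2 was again the highest, and the log2 fold change was 2.75 (SE 0.37, adjusted p = 0.00227 by edgeR). Il6st, the shared gp130 chain, was at 134, 133 and 149 CPM in young and at 163, 166 and 158 CPM in aged retina. The groups were apart by a small margin, with a log2 fold change of 0.22 (SE 0.06, adjusted p = 0.0359 by edgeR). This call was lost in 5 of the 6 fits that left out 1 library (adjusted p 0.060 to 0.146) and was kept only without young library 3 (adjusted p = 0.027).

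Downstream of the receptors, Stat3 and Socs3 both rose. Stat3, the transcription factor of the pathway, was at 84.9, 85.9 and 88.2 CPM in young and at 169, 221 and 157 CPM in aged retina. Young libraries were nearly level, and the log2 fold change was 1.08 (SE 0.12, adjusted p = 0.00124 by edgeR). Socs3, the feedback inhibitor that STAT3 induces, gave only 3, 7 and 7 counts in young retina, or 0.23, 0.53 and 0.47 CPM, and reached 5.85, 7.97 and 3.18 CPM in aged retina. Its log2 fold change of 3.75 (SE 0.43, adjusted p = 0.000743 by edgeR) was the highest of the 9. Aged library 2 held the highest value of 8 of the 9 members within its group, Lif being the exception, and without it the log2 fold changes were 3.14 for Gfap, 2.31 for Osmr and 3.42 for Socs3, all still with an adjusted p under 0.05 (edgeR).

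Cell markers moved with age in the same libraries. Sums of 10 microglia and macrophage markers were 36.3 to 38.8 CPM in young and 106 to 176 CPM in aged retina, and sums of 11 rod markers were 52843 to 57648 CPM and 33244 to 37772 CPM. The Müller sums were 6514 to 6878 CPM in young and 6311 to 6471 CPM in aged retina. The 5 astrocyte markers summed to 141 to 221 CPM and 220 to 257 CPM. Nearly all of that sum came from Gja1, Slc1a2 and S100b. Pax2 was at most 0.62 CPM and Aldh1l1 at most 1.07 CPM in any retina library, Pax2 being at 0 in 1 of the 9. The part of these marker shifts in the changes of the members was not tested.

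**Figure D2:**
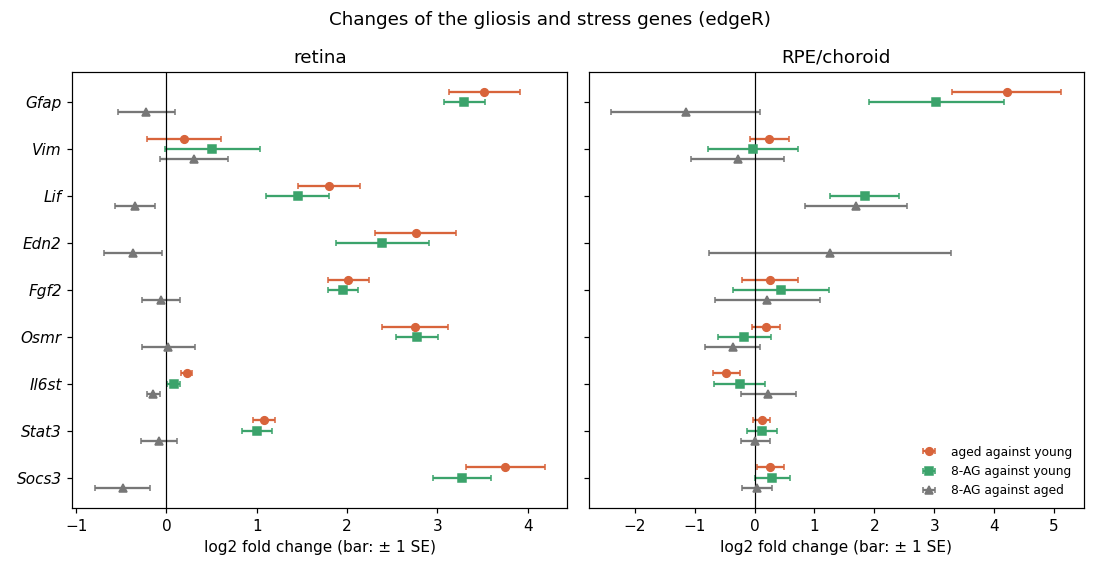
Log2 fold changes (points) with 1 SE (bars) from edgeR for the 9 genes in retina (left) and RPE/choroid (right), for aged against young, 8-AG against young and 8-AG against aged; the 2 panels have different scales and genes that failed the expression filter have no point. In retina both comparisons with young lie far right of 0 for 7 genes, and 8-AG against aged lies near 0 for all 9, from -0.48 to 0.31.

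Whether 8-AG changed these genes in aged retina was asked with the 6 libraries of treated and untreated aged rats. None of the 9 members passed an adjusted p under 0.05 in edgeR or in the alternative DESeq2 test, and none had an unadjusted P under 0.05 in edgeR. Over all 14631 genes the share called was 0.0205%, and 537 genes had an unadjusted P under 0.05. By the fold rule 0 members were called as well, against 0.957% of all genes. The log2 fold changes ran from -0.48 (Socs3) to 0.31 (Vim). Of the 9, 7 lay below 0, and the median was -0.15. All treated and no untreated retina libraries carry the total RNA label, so treatment and any difference behind that label cannot be told apart.

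Treated Gfap was at 289, 285 and 208 CPM, within and around the untreated aged values of 219 to 444 CPM, and its log2 fold change was -0.22 (SE 0.31). Treated Socs3 was at 4.63, 3.83 and 3.74 CPM, inside the untreated range of 3.18 to 7.97 CPM, with a log2 fold change of -0.48 (SE 0.31, unadjusted P = 0.149). Both genes therefore overlapped between treated and untreated rats. For Edn2 the treated libraries gave 1.08, 1.63 and 2.34 CPM, which overlapped the untreated 1.72 to 2.55 CPM (log2 fold change -0.37, SE 0.32). For Osmr, Stat3 and Fgf2 the log2 fold changes were 0.02 (SE 0.29), -0.08 (SE 0.20) and -0.06 (SE 0.21).

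In 2 members the treated and untreated libraries did not overlap, both lower with 8-AG, as were 3.96% of all genes without overlap. Lif was at 2.08, 2.28 and 2.34 CPM with 8-AG and at 3.12, 2.93 and 2.49 CPM without, a log2 fold change of -0.35 (SE 0.22, unadjusted P = 0.152 by edgeR). Il6st was at 154, 150 and 136 CPM with 8-AG, and its log2 fold change was -0.15 (SE 0.07, unadjusted P = 0.0675 by edgeR). Neither passed a test, with an adjusted p of 0.996 for both. Treated Vim was at 462, 229 and 212 CPM, and the high library 1 was also the treated library with the high lens sum (1766 CPM, against 19.6 and 22.0 CPM in the other two). Without it the log2 fold change of Vim turned from 0.31 to -0.14.

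Treated retina was also compared with young retina, a comparison that shares its young libraries with that of aged against young retina and its treated ones with that of 8-AG against aged retina. In edgeR 7 of the 9 members were higher at an adjusted p under 0.05, where 7.78% of 14542 genes were, and 14.9% passed in either direction. The same 7 were called by the fold rule (8.58% of all genes) and showed no overlap (17.7%). The log2 fold changes were 3.30 for Gfap (SE 0.23, adjusted p = 0.00103), 3.27 for Socs3 (SE 0.32, adjusted p = 0.000238) and 2.78 for Osmr (SE 0.23, adjusted p = 0.00011). They were 2.39 for Edn2 (SE 0.52), 1.96 for Fgf2 (SE 0.17), 1.45 for Lif (SE 0.35) and 1.002 for Stat3 (SE 0.16), with adjusted p from 0.000117 to 0.0231. Lif lost its call without young library 1, young library 3, 8-AG library 2 or 8-AG library 3 (adjusted p 0.051 to 0.084) and in DESeq2 (adjusted p = 0.054), and Edn2 without 8-AG library 2 (adjusted p = 0.052). Vim, at 0.51 (SE 0.52), and Il6st, at 0.08 (SE 0.07), did not pass. Microglia and macrophage marker sums were 116 to 124 CPM in treated against 36.3 to 38.8 CPM in young retina. Rod marker sums were 33959 to 44818 CPM against 52843 to 57648 CPM. The part of these marker differences in the changes was not tested.

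Other genes of these pathways were counted from 4 lists. In the list of other reactive glia and STAT3-responsive genes, 20 were tested in aged against young retina, with 12 higher (7.29% of all genes) and 0 lower by adjusted p in edgeR (8 to 12 with 1 library left out). All 20 fold changes were above 0, where 50.4% of all genes were, and the median log2 fold change was 1.71. Gbp2, an interferon-induced GTPase that also marks reactive astrocytes, reached 29.0 ± 9.6 CPM in aged against 1.92 ± 0.10 CPM in young retina (SD, n = 3), with a log2 fold change of 3.91 (SE 0.29, adjusted p = 0.000355). Bcl3, a STAT3-induced partner of NF-kappaB, stood at 0.41 ± 0.12 and 5.69 ± 2.92 CPM, with a log2 fold change of 3.76 (SE 0.45, adjusted p = 0.000998). Both differences were larger than the spread between libraries. Ceruloplasmin (Cp), the copper-bound ferroxidase, rose by 2.27 on the log2 scale (SE 0.17, adjusted p = 0.000743), and the protease inhibitor A2m by 1.97 (SE 0.17, adjusted p = 0.0011). In 8-AG against aged retina 0 of 21 tested genes of this list passed edgeR or DESeq2 or had an unadjusted P under 0.05 in either, and the median log2 fold change was -0.00052. Against young, 13 of 21 were higher with 8-AG (7.78% of all genes), and the 4 genes above had log2 fold changes of 3.54 (Gbp2), 3.87 (Bcl3), 2.31 (Cp) and 1.97 (A2m).

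**Figure D3:**
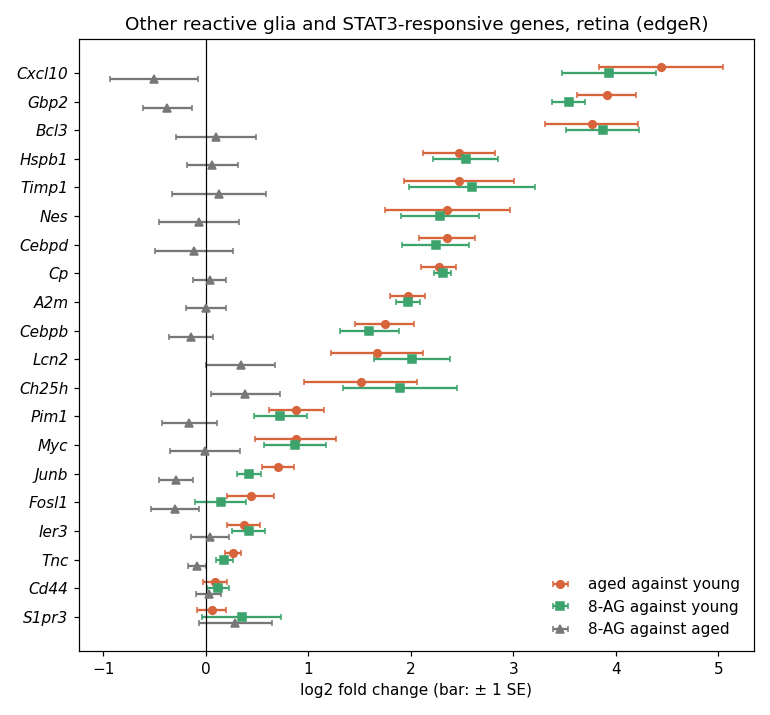
Log2 fold changes (points) with 1 SE (bars) from edgeR in retina for the 20 genes of the list of other reactive glia and STAT3-responsive genes that were tested in aged against young. The points of aged and of 8-AG against young run together from above 3.5 (Gbp2 and Bcl3 among them) down to near 0, and those of 8-AG against aged stay around 0 (median -0.00052).

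Among other gp130 cytokine and JAK-STAT genes, 6 of 19 tested genes passed as higher and 1 as lower in aged retina by adjusted p (edgeR), beside the 7.29% of all genes that were higher, and the median log2 fold change was 0.18. The fits with 1 library left out made 4 to 5 calls in this list in place of 7, and DESeq2 made 5. Ptpn6, a phosphatase of blood-derived cells that damps JAK signals, rose by 1.60 (SE 0.19, adjusted p = 0.000675), while the microglia sums above were higher too. Stat5b was the gene that fell, by 0.41 on the log2 scale (SE 0.06, adjusted p = 0.00216). The gp130 cytokine Clcf1 rose by 1.12 on the log2 scale (SE 0.26, adjusted p = 0.0186), lost without young library 1, young library 3 or aged library 1 (up to 0.071). With 8-AG, 0 of 19 passed against untreated aged retina in edgeR or DESeq2, the lowest unadjusted P being that of Tyk2 (0.072). Against young, 4 were higher and 1 lower (3 to 6 calls with 1 library left out, and 4 in DESeq2), with Ptpn6 at 1.47.

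Of 14 other endothelin and FGF genes tested, 2 were higher in aged retina (edgeR), a count near the background of 14.5% called in either direction and 7.29% higher, and the median log2 fold change was 0.05. DESeq2 called 0 of these genes, with 4 at an unadjusted P under 0.05. The 2 were Edn3, at 0.25 ± 0.20 against 1.16 ± 0.12 CPM (log2 fold change 2.20, SE 0.51, adjusted p = 0.0183, lost without young library 2, young library 3 or aged library 3, and a log2 fold change of 2.94 without young library 1), and Fgf1, with a log2 fold change of 0.28 (SE 0.08, adjusted p = 0.0401), lost in 5 of 6 fits that left out a library, all but the one without young library 2. Edn1 was the gene of this list with the lowest P in 8-AG against aged retina, at 2.86, 2.44 and 2.27 CPM against 1.40, 1.66 and 1.31 CPM, without overlap. Its log2 fold change of 0.78 (SE 0.25, unadjusted P = 0.0116) passed the fold rule, as did 0.957% of all genes, but had an adjusted p of 0.996 in edgeR. In DESeq2 0 of the 14 genes had an unadjusted P under 0.05, so this fold-rule call was lost there, and neither edgeR nor DESeq2 called any of the 14 with 8-AG. Against young, Fgf1 was the 1 of 13 that passed with 8-AG in edgeR (0.41, adjusted p = 0.0161, lost in 3 of 6 fits that left out a library), while DESeq2 called 2 of 14. Of 7 other intermediate filament genes 2 were higher in aged retina (7.29% of all genes). Synm, which encodes the vimentin partner synemin, rose by 0.58 on the log2 scale (SE 0.09, adjusted p = 0.00278), and the neurofilament gene Nefl by 0.24 (SE 0.07, adjusted p = 0.0353), the latter lost in every fit that left out a library but that without aged library 1. With 8-AG 0 of the 7 passed against aged in edgeR or DESeq2, with none at an unadjusted P under 0.05, and 3 were higher against young (7.78% of all genes), Synm at 0.60 among them. The sums of 7 ganglion cell markers, 1 of which is Nefl itself, were 821 to 890 CPM in young, 892 to 1025 CPM in aged and 964 to 1098 CPM in treated retina, and their part in these changes was not tested.

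Genes whose pattern across the 9 retina libraries was most like that of Gfap were picked from 13163 genes with a symbol and a mean log2 CPM of at least 1, by the root mean square difference of log2 CPM centred on the young mean. They were Gbp2 (0.31), Bcl3 (0.33), Ifi47 (0.39), Lad1 (0.39) and Fcrl2 (0.43). For Edn2 they included C1qc (0.57), C1qa (0.57), Gda (0.58) and Chi3l1 (0.59). The differences were larger for Edn2, whose libraries hold from 1 to 40 counts.

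**Figure D4:**
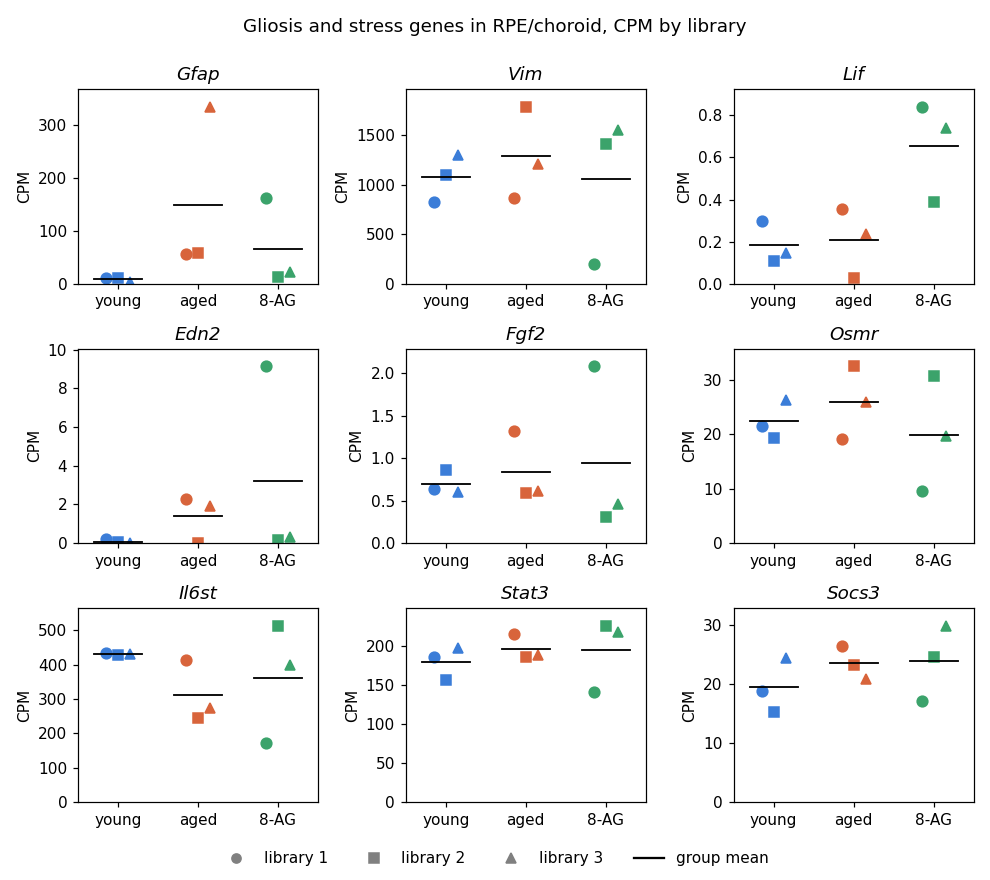
CPM of the same 9 genes in the 9 RPE/choroid libraries, 1 panel per gene with an axis from 0; points are libraries (circle 1, square 2, triangle 3) and lines are group means. 8-AG library 1 is the highest of all 9 libraries for Edn2, Fgf2 and Lif and the lowest for Vim, Osmr, Stat3 and Il6st, and Gfap is higher in all aged than in all young libraries.

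In RPE/choroid no member passed an adjusted p under 0.05 with age in edgeR, nor did any of the 16047 genes tested (0%), of which 341 had an unadjusted P under 0.05. DESeq2 called 1 member, Gfap, and 29 of 22374 genes in all. By the fold rule edgeR also called 1 of the 7 members tested, again Gfap, where 1.35% of all genes were called and 2.97% were higher without overlap, and Edn2 and Lif did not pass the expression filter. Levels in the 2 tissues were normalized separately and are not compared here.

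Gfap was at 10.3, 9.92 and 3.83 CPM in young and at 56.6, 58.2 and 334 CPM in aged RPE/choroid. All aged libraries were above all young ones, but library 3 was far above the other two. The log2 fold change was 4.20 (SE 0.91, unadjusted P = 0.00365, adjusted p = 1.0 by edgeR), it was 2.85 without aged library 3, and DESeq2 gave 4.21 with an adjusted p of 6.77e-05. Aged library 3 also held the highest sum of Müller glia markers of the 9 libraries, 9781 CPM against 2935 and 5275 CPM in the other aged and 2915 to 5081 CPM in young libraries. In treated libraries 1 to 3 that sum was 8574, 3384 and 7641 CPM, beside 161, 12.3 and 21.3 CPM of Gfap. In RPE/choroid this list is not specific to Müller glia, as the study counts its gene Rlbp1 among RPE-specific mRNAs. Of its other genes, Clu and Glul were at no less than 1075 and 905 CPM in every library. Aqp4 was at 2.72 to 376 CPM and Kcnj10 at 0.029 to 5.28 CPM. The 5 astrocyte markers summed to 1012 to 1208 CPM in young, 948 to 1336 CPM in aged and 385 to 2876 CPM in treated libraries. Most of that sum came from S100b (172 to 1237 CPM) and Gja1 (96.6 to 1984 CPM). Of the 5 only Pax2 was at 0 in all 9. The part of retinal glia in the Gfap values was not tested.

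Il6st was lower in all 3 aged libraries (414, 245 and 272 CPM) than in young ones (432, 427 and 429.8 CPM), as were 4.13% of all genes without overlap. Its log2 fold change was -0.47 (SE 0.23, unadjusted P = 0.0834 by edgeR). The sums of 5 endothelial markers (of 6 listed) were lower in the same aged libraries too, at 3867, 4069 and 2789 CPM against 4815 to 6139 CPM in young ones, and their part in the Il6st values was not tested. Socs3, at 18.9, 15.2 and 24.5 CPM in young and 26.4, 23.3 and 21.0 CPM in aged RPE/choroid, overlapped between the groups, with a log2 fold change of 0.27 (SE 0.22). Stat3, Osmr, Vim and Fgf2 also overlapped, with log2 fold changes of 0.12 to 0.26.

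Edn2 varied widely within the groups. It gave 6, 1 and 0 counts in young, 71, 0 and 56 counts in aged and 294, 6 and 13 counts in 8-AG treated RPE/choroid. The 0 of young library 3 allows up to 0.0627 CPM and that of aged library 2 up to 0.0884 CPM, at 3 counts a library and for counting error only. All libraries above 1 CPM, which were aged 1 (2.29 CPM), aged 3 (1.89 CPM) and 8-AG 1 (9.13 CPM), had rod marker sums of 11357, 16533 and 54930 CPM. Young libraries 1 and 2 had sums of 17602 and 19598 CPM with 0.20 and 0.027 CPM of Edn2. The other 4 libraries, with rod sums of 604 to 1970 CPM, held at most 0.28 CPM.

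**Figure D5:**
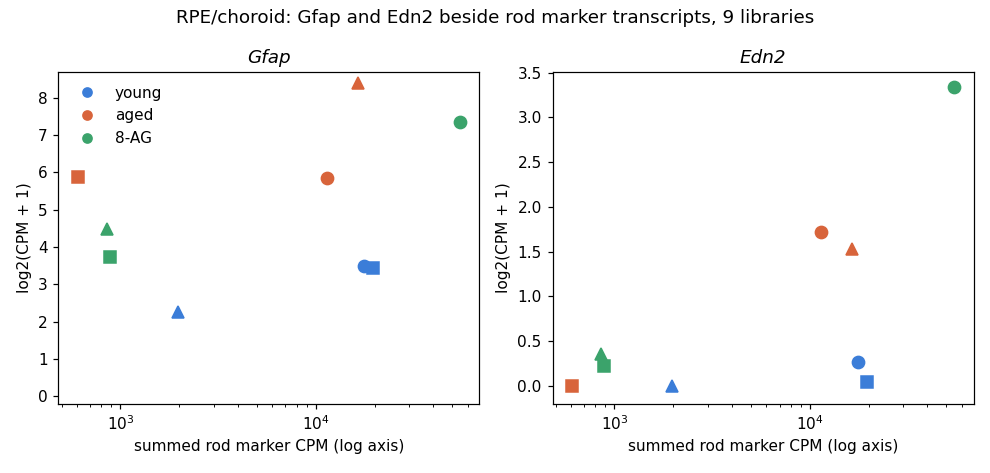
Log2(CPM + 1) of Gfap (left) and Edn2 (right) in RPE/choroid against the summed CPM of 11 rod markers on a log axis; each point is 1 of 9 libraries, coloured by group (circle 1, square 2, triangle 3). Edn2 is near 0 in the 4 libraries with few rod transcripts and highest in 8-AG library 1, and the 3 aged libraries lie above the young ones for Gfap at both ends of the rod axis.

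With 8-AG, no member passed an adjusted p under 0.05 against untreated aged RPE/choroid in edgeR, and 0 of 16257 genes did (0%), with 274 at an unadjusted P under 0.05, none of them a member. DESeq2 called no member either. The fold rule called 0 of 9 members, against 1.65% of all genes. Gfap was at 161, 12.3 and 21.3 CPM in treated libraries, of which library 1, with its rod and muscle transcripts, overlapped the aged range and the other two lay below it. The log2 fold change was -1.15 (SE 1.24), and it was -3.15 without 8-AG library 1 (adjusted p = 0.925 by edgeR) and 0.22 without aged library 3. Edn2 was at 9.13, 0.17 and 0.28 CPM, and its log2 fold change of 1.26 (SE 2.02) turned to -2.60 without 8-AG library 1.

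Lif was the member whose treated libraries all lay above the untreated aged ones in RPE/choroid, as were 2.1% of all genes without overlap. It gave 27, 14 and 34 counts with 8-AG and 11, 1 and 7 counts without, or 0.84, 0.39 and 0.74 against 0.35, 0.029 and 0.24 CPM. The log2 fold change was 1.69 (SE 0.85, unadjusted P = 0.0967 by edgeR) and 1.45 without 8-AG library 1. Against young RPE/choroid, where Lif gave 9, 4 and 7 counts, it was 1.84 (SE 0.58, unadjusted P = 0.0203, adjusted p = 1.0 by edgeR), and 1.64 without 8-AG library 1. In this comparison, too, 0 members and 0% of genes passed an adjusted p under 0.05, 341 genes having an unadjusted P under 0.05, and DESeq2 called no member. The fold rule called 2 of 8 members, Lif and Gfap (3.03, SE 1.13, unadjusted P = 0.0384), against 1.99% of all genes, and in both all 3 treated libraries lay above all young ones, as did 2.82% of all genes. It called 0 without 8-AG library 1, where Gfap was at 1.08. Edn2 did not pass the expression filter in this comparison, and with no filter it was at 5.48 (unadjusted P = 0.0410), which would make it the third by this rule, with overlapping groups.

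The other 6 members overlapped between treated and both other groups in RPE/choroid. Vim was at 203, 1412 and 1547 CPM in treated libraries, Osmr at 9.51, 30.6 and 19.6 CPM and Il6st at 171, 513 and 398 CPM, library 1 being the lowest in each. Against aged their log2 fold changes were -0.28 (SE 0.78), -0.37 (SE 0.46) and 0.23 (SE 0.46), and against young -0.03 (SE 0.75), -0.17 (SE 0.44) and -0.25 (SE 0.42). For Stat3, Socs3 and Fgf2 they were 0.0096 (SE 0.24), 0.038 (SE 0.25) and 0.21 (SE 0.87) against aged, and 0.12 (SE 0.25), 0.30 (SE 0.29) and 0.44 (SE 0.80) against young.

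The 4 pathway lists held no gene with an adjusted p under 0.05 in any RPE/choroid comparison, in edgeR or DESeq2. At an unadjusted P under 0.05 edgeR had 4 of 63 of these genes with age, 2 of 65 for 8-AG against aged and 2 of 63 for 8-AG against young, beside 341 of 16047, 274 of 16257 and 341 of 16215 over all genes. In DESeq2 the counts were 8 of 65, 5 of 65 and 8 of 62, beside 471 of 22374, 768 of 22475 and 909 of 22289 over all genes. The lowest unadjusted P of the lists with age were those of Lifr, the LIF receptor, which was lower in all aged libraries, as were the endothelial sums above (log2 fold change -0.73, SE 0.21, unadjusted P = 0.012), and of Fgfr2 (-0.57, SE 0.18, unadjusted P = 0.019). With 8-AG against aged they were those of the kinase gene Pim1 (1.03, SE 0.40, unadjusted P = 0.045) and of Fgfr2 (1.69, SE 0.67, unadjusted P = 0.047), the latter 0.57 without 8-AG library 3. Against young they were those of Cntf (2.45, SE 0.91, unadjusted P = 0.038) and Lcn2 (1.86, SE 0.71, unadjusted P = 0.042), in both of which the groups overlapped.

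The change with age was compared between the tissues with an interaction term over 16792 genes, of which 27 (0.161%) passed an adjusted p under 0.05 in edgeR. Only RPE/choroid RNA went through full-length enrichment before sequencing, since its yield was low. Tissue and library protocol therefore cannot be told apart, in the levels or in the difference between changes. Among the members 1 passed. Socs3 rose more in retina than in RPE/choroid by 3.51 on the log2 scale (SE 0.52, adjusted p = 0.0466 by edgeR). Its retina change starts from only 3 to 7 counts per young library. The call was lost in 11 of 12 fits that left out a library (adjusted p 0.050 to 0.124). It was kept only without retina aged library 3. Osmr, with a difference of 2.57 (SE 0.48, adjusted p = 0.0686), Stat3, with 0.97 (SE 0.20, adjusted p = 0.0891), and Fgf2, with 1.76 (SE 0.50, adjusted p = 0.217), did not pass. For Gfap, which was higher with age in both tissues, the difference was -0.67 (SE 0.94). The change with 8-AG did not differ between tissues at an adjusted p under 0.05 for any of 16915 genes (0%) in edgeR, with 413 at an unadjusted P under 0.05, of the members only Lif (-2.01, SE 0.85, unadjusted P = 0.0392).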

How the data were processed

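Retina reads were aligned to Rnor_6.0 with Bowtie2 2.1.0 and quantified with RSEM 1.2.15 per the submitters' processing notes, and the authors deposited expected counts, of which 11.5% were not whole and which were rounded here. For RPE/choroid the authors deposited raw counts per gene. A table of TMM-normalized signal deposited by the authors served to pair identifiers with symbols in retina and for an alternative test. Tables of the authors' own comparisons hold fold changes and p-values, which were not used. Only their gene names were read.

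The 6 libraries of a comparison were fitted apart from the rest in edgeR 4.0.16 (R 4.3.3), using filterByExpr, TMM factors, estimateDisp, glmQLFit with robust=TRUE and glmQLFTest, with Benjamini-Hochberg adjustment over all genes tested. The difference between tissues was an interaction term. The procedure was tested on simulated data. Total counts were 12283458 to 15644346 in retina and 28573828 to 48203050 in RPE/choroid, where 3 counts set the floor for a count of 0. P-values measure the spread between these libraries, which may be technical.

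The members and the gene lists were chosen with earlier results of these data known. All measured members are named in every comparison within a tissue. Of each other list, at most the 4 genes with the lowest adjusted p under 0.05 are named, or at most the 2 with the lowest unadjusted P where none passed. Results of 2 genes that this rule selects are not reported here. Alternatives were RLE size factors, a minimum of 10 counts in each library, no filter, robust=FALSE, a replicate block, a joint fit of all 3 groups, DESeq2 1.42.0, unrounded values, limma 3.58.1 on the deposited signal (pseudocount 1), limma voom with a weight per tissue, sums of libraries that share a label number, a rod marker covariate and each library left out. Replicate numbers did not pair the libraries (in retina, deviations of same-numbered young and aged libraries correlated at -0.07, -0.04 and 0.10). Promoter windows are from RefSeq. Python 3.11.15, pandas 2.3.3, SciPy 1.17.1 and matplotlib 3.10.9 were used for tables and plots.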

Additional observations from a re-analysis of the deposited data

Results flagged for a closer look

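The change with age differed between the tissues for 4 genes among 9 members and 63 other genes of the lists, by an interaction term in edgeR with an adjusted p under 0.05, as for 27 of all 16792 genes (0.161%). The retina change exceeded the RPE/choroid change by 3.51 on the log2 scale for Socs3 (SE 0.52, adjusted p = 0.0466), by 1.82 for Cp (SE 0.26, adjusted p = 0.0424), by 3.40 for Gbp2 (SE 0.52, adjusted p = 0.0466) and by 3.33 for Bcl3 (SE 0.53, adjusted p = 0.0496). Socs3 and Bcl3 were low in young retina, with means of 0.41 CPM each. With 1 library left out, Socs3 and Bcl3 each lost the call in 11 of 12 fits, Cp in 10 and Gbp2 in 12. Over all genes the calls fell from 27 to 4 with RLE size factors, 0 with the replicate block and 6 with voom and a weight per tissue, and Socs3 passed in none of these (adjusted p 0.0763, 0.303 and 0.0656).

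In 2 members the groups lay apart in opposite directions in the tissues. Il6st was higher with age in all aged retina libraries and lower in all aged RPE/choroid libraries, a difference of 0.71 (SE 0.25, unadjusted P = 0.0162, adjusted p = 0.391 by edgeR). Lif was lower with 8-AG than in untreated aged rats in every retina library and higher in every RPE/choroid library. Its difference was -2.01 (SE 0.85, unadjusted P = 0.0392, adjusted p = 1.0 by edgeR), where RPE/choroid counts were 1 to 34 per library. Neither difference passed an adjusted p under 0.05. Both met the fold rule, as did 1138 of 16792 genes for the difference with age and 393 of 16915 for that with 8-AG.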

How the results depend on the processing

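No called value changed direction under any alternative. Of 9 members, the retina counts were 5 by adjusted p and 4 by the fold rule for aged against young, and 4 and 4 for 8-AG against young, with at least 10 counts in every library, a filter that leaves 6 members to test. In RPE/choroid aged against young, DESeq2 called 1 by adjusted p and 2 by the fold rule, and libraries that share a label number, when summed, gave 2 by the fold rule. For 8-AG against aged RPE/choroid the fold rule called 1 with the replicate block and 1 with the rod covariate. For 8-AG against young RPE/choroid it called 1 with at least 10 counts, all 3 groups in one fit, the replicate block or summed libraries. The difference between tissues with age was called for 0 members with RLE size factors, the replicate block or voom (Socs3 adjusted p 0.0763, 0.303 and 0.0656). With the replicate block 6 members passed in aged against young retina, Gfap being lost (3.46, adjusted p = 0.0642) as was Il6st (0.0889), 7 in 8-AG against young and 0 in the other comparisons. Il6st was also lost with all 3 groups in one fit (0.0526) and on the deposited signal with limma (0.0687).

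Counts with 1 library left out, by adjusted p and by the fold rule, were 7 to 8 and 7 for aged against young retina, 0 and 0 to 1 for 8-AG against aged, and 5 to 7 and 7 for 8-AG against young. In RPE/choroid they were 0 by adjusted p, and by the fold rule 1 to 2, 0 to 1 and 0 to 3 in the same order. For the tissue difference with age they were 0 to 1.

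Values that changed sign were all uncalled. With 8-AG against aged RPE/choroid they were Stat3 at -0.0066 (all 3 groups), -0.012 (block) and -0.047 (rod covariate), Socs3 at -0.024 (rod covariate) and Fgf2 at -0.18 (block) and -0.10 (rod covariate). Against young RPE/choroid they were Stat3 at -0.036 (rod covariate) and Fgf2 at -0.056 (block). For the tissue difference, Vim with age was at 0.074 with the block and with voom, and Fgf2 with 8-AG at 0.15 and 0.22.

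With 1 library left out, log2 fold changes that crossed 0 ranged as follows. Vim in aged against young retina ranged from -0.10 to 0.52. In 8-AG against aged retina, Gfap ranged from -0.41 to 0.16, Vim from -0.14 to 0.51, Osmr from -0.16 to 0.47, Stat3 from -0.21 to 0.092 and Fgf2 from -0.22 to 0.21. In aged against young RPE/choroid, Vim ranged from -0.069 to 0.46, Osmr from -0.0093 to 0.37 and Fgf2 from -0.24 to 0.46. In 8-AG against aged RPE/choroid, Gfap ranged from -3.15 to 0.22, Vim from -0.67 to 0.20, Stat3 from -0.11 to 0.18, Socs3 from -0.17 to 0.21, Edn2 from -2.60 to 1.80, Fgf2 from -1.13 to 0.69 and Il6st from -0.11 to 0.55. In 8-AG against young RPE/choroid, Vim ranged from -0.41 to 0.47, Osmr from -0.60 to 0.17, Fgf2 from -0.86 to 0.89 and Il6st from -0.57 to 0.090. For the tissue difference with age, Gfap ranged from -1.06 to 0.68 and Vim from -0.33 to 0.29, and with 8-AG Gfap from -0.28 to 2.92, Stat3 from -0.27 to 0.078, Edn2 from -2.12 to 2.20 and Fgf2 from -0.64 to 1.05.

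The common dispersion was 0.015 to 0.022 in retina and 0.195 to 0.396 in RPE/choroid, where Lif and Edn2 gave from 0 to 294 counts per library.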
